A study of Danio rerio with 3 samples.

Results

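The genes described here encode the collagens, laminins and other proteins of the extracellular matrix, followed along the embryonic zebrafish heart. They are the gene rows whose name, in lower case, begins with col and a digit, lama, lamb, lamc, fbln, fbn, fn1, sparc, vcan, dcn, lum, postn or tnc, and which had 10 or more reads over the 3 hearts. Of 16023 gene rows, 55 matched these names and 52 reached the minimum. COL11A2, COL8A1 and col8a1a, with 1, 2 and 3 reads, were left out. Names in lower case are zebrafish names, and names in capitals are those of the human match. Rows that share a name (COL2A1, COL12A1 and FN1), and COL1A1 beside col1a1a, may be near-identical copies, so the split of reads between them is uncertain.

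The samples were 3 hearts of wild-type (TL) embryos at 2 dpf (48 hpf), with no treatment and no mutant. Each heart was cut into 10 µm sections from pole to pole and every section was sequenced on its own (tomo-seq), giving 40, 48 and 29 tissue sections in hearts 1, 2 and 3. Sections were summed into outflow tract (4 to 10 on the section scale of heart 1), ventricle (12 to 18), AV canal (19 to 26), atrium (27 to 32) and sinoatrial region (33 to 39). Sections between or beyond these windows belong to no region, and elsewhere below means the other regions only. In heart 2 the 2 sections between outflow tract and ventricle held 394363 and 699259 gene reads. The heart is the replicate (n = 3), and a level is the number of reads of a gene per 10000 gene reads of a region in 1 heart. A single gene row, ENSDARG00000080337, held between 4.61% (outflow tract of heart 3) and 44.3% (atrium of heart 1) of these reads, which affects levels.

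Collagens are trimers of alpha chains wound into a helix. Fibrillar collagens form the fibres of connective tissue, fibril-associated collagens sit on those fibres, type VI collagen forms beaded filaments, and type IV collagen forms the sheet of basement membranes together with laminins, which are built of alpha, beta and gamma chains. In the early heart such matrix lies between myocardium and endocardium, and the outflow and inflow poles are continuous with surrounding mesenchyme. The roles given below are those known for the vertebrate proteins.

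Depth differed widely. The 15 region libraries held 14700 to 2895368 gene reads, and the shallowest was the outflow window of heart 3. In that library 8 heart muscle rows summed to 363 reads per 10000, against 6.24 and 1.03 in the outflow windows of hearts 1 and 2, and only 2 matrix genes were read. It thus goes against its label. Outflow calls and the outflow median of the matrix genes are given with and without it, and other outflow fold changes include it. In the outflow window of heart 2, 7 skin rows summed to 47.2 reads per 10000, against 0.384 in that of heart 1. The part of skin in outflow results was not tested. Reads also came in clumps: of 281 combinations of matrix gene, heart and region with 10 or more reads, 65 (23.1%) had all of them in a single section. The sources used do not say whether reads were collapsed by molecular identifier, so intervals cover counting error only. In whole regions, fewer cells of a type and less RNA per cell cannot be told apart.

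The summed matrix level was highest at the outflow end in heart 1 and at the inflow end in hearts 2 and 3. Summed over the 52 genes, the outflow tract of the 3 hearts gave 58.1, 38.6 and 27.9 reads per 10000, the last from 41 reads. Levels were 15.9, 26.7 and 28.1 in the ventricle, 12.8, 19.6 and 15.1 in the AV canal, and 7.19, 26.9 and 19.3 in the atrium of hearts 1, 2 and 3. The sinoatrial region gave 19.03, 141 and 120, so that hearts 2 and 3 lay above every other library and heart 1 did not. Split after the values were seen, that region gave 19.2, 25.3 and 14.9 up to position 36 in hearts 1, 2 and 3. From position 37 on, hearts 2 and 3 gave 170 and 179, and heart 1 gave 0 from only 2713 gene reads. Of the genes read within the region windows, the outflow tract held the highest level of 29 of 45 in heart 1, 19 of 50 in heart 2 and 1 of 35 in heart 3. The sinoatrial region held that of 7, 20 and 10 genes. The same counts were not made for all genes, so they do not set matrix genes apart. They also depend on depth, as only 2 matrix genes were read in the outflow window of heart 3. LAMB2 was the single gene whose highest region was the same in all 3 hearts, with its 31 reads there in heart 3 from 1 section.

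**Figure D1:**
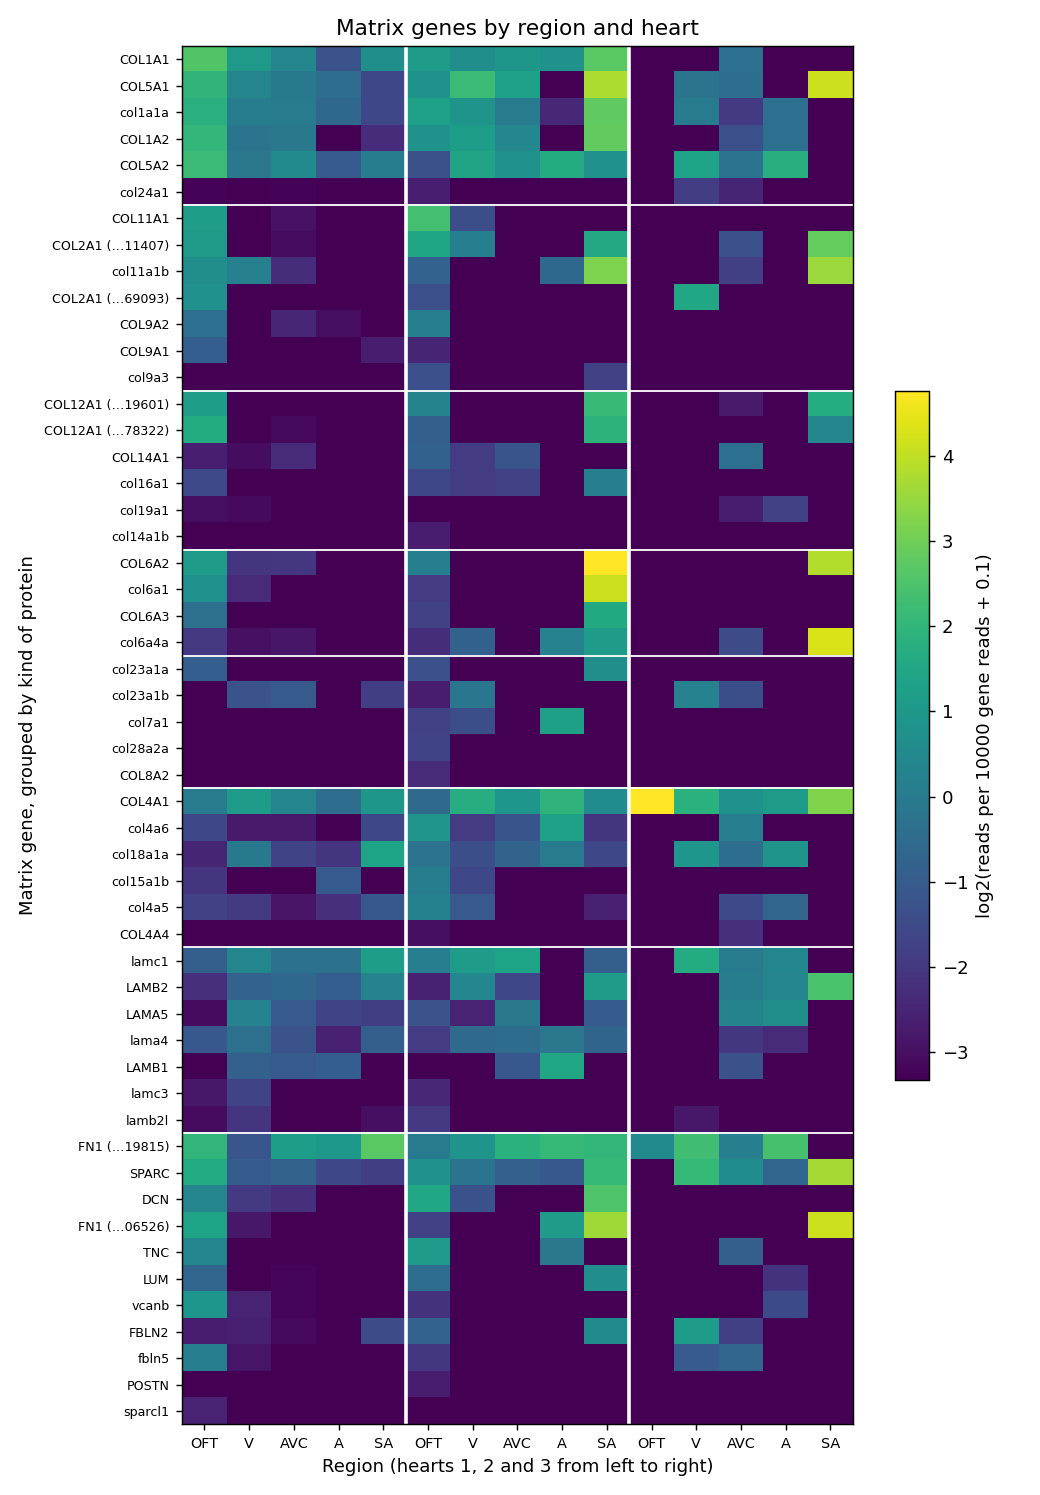
Level of each of the 52 matrix genes (rows, grouped by kind of protein) in the 5 regions of hearts 1, 2 and 3 (columns; OFT outflow tract, V ventricle, AVC AV canal, A atrium, SA sinoatrial region), coloured by log2(reads per 10000 gene reads + 0.1). COL6A2 is bright at SA of hearts 2 and 3, with 27.1 and 14.2 reads per 10000, and COL11A1 is bright at OFT of hearts 1 and 2 alone.

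The first comparison asked which matrix genes mark the outflow tract, the arterial pole. The cartilage-type collagens (types II, IX and XI) stood out in hearts 1 and 2. Their 7 rows summed to 8.39 and 9.83 reads per 10000 in the outflow tract of these hearts. In the ventricle, AV canal or atrium they reached at most 1.05 and 1.30. Their sinoatrial sums were 0.0524 in heart 1, but 12.1 and 18.7 in hearts 2 and 3. In a quasi-likelihood count model with Benjamini-Hochberg adjustment, 1 of the 45 matrix genes tested was higher at an adjusted p under 0.05 and none was lower, with 0.105% of all 11453 genes called. An unadjusted p under 0.05 was reached by 17 of the 45 (37.8%), all higher, and by 8.16% of all genes. A gene needed reads in 2 or more hearts to be tested, and outflow reads counted toward this. Among the 17, COL9A1, COL9A2, COL2A1 ENSDARG00000069093, COL6A3 and col23a1a had reads in other windows of at most 1 heart. They were thus tested only through their outflow reads, and the 17 are not independent support for an outflow rise. All genes had a median log2 fold change of 0.49, and fold changes below are relative to the median of all genes in their comparison. The matrix genes had a median of 0.78 on that scale, and 30 of 45 were above 0.

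The gene that rose was COL11A1 (ENSDARG00000026165), a chain of type XI collagen, which lies in the core of cartilage fibrils. It had 2.22 reads per 10000 (95% Wilson limits 2.00 to 2.46) in the outflow tract of heart 1, 5.01 (4.76 to 5.27) in that of heart 2 and 0 in that of heart 3, where 3 reads would be 2.04. The other 4 regions together had 0.0144 in heart 1, 0.106 in heart 2 and 0 in heart 3. It was 154-fold and 47.1-fold higher in the outflow tract of hearts 1 and 2 than in those regions, while heart 3 had no read of it in any section. Outside the windows of heart 2, COL11A1 had 3.99 reads per 10000 between outflow tract and ventricle. Beyond the sinoatrial window of that heart it had 5.85, from 73 reads, above its outflow level. Its relative log2 fold change was 4.97 (SE 1.65), with an adjusted p of 0.00241 in the quasi-likelihood model. The reads came from 4 of 7 outflow sections in heart 1 and 6 of 6 in heart 2. With heart 1 or heart 2 left out, the gene was read in too few hearts to be tested.

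The other cartilage-type chains had adjusted p values of 0.145 or more in the same model. COL9A2, a type IX chain that decorates type II fibrils, had outflow levels of 0.678 and 1.04 reads per 10000 in hearts 1 and 2, against 0.0408 and 0 in their other regions, and heart 3 had none in any window. Type II collagen is the main fibril of cartilage and of the notochord sheath. Its row COL2A1 ENSDARG00000069093 had 1.61, 0.290 and 0 in the outflow tract, against 0, 0 and 0.272 elsewhere, with all 63 reads of heart 3 in 1 ventricular section. The row COL2A1 ENSDARG00000011407 had 1.95, 2.64 and 0 in the outflow tract, against 0.00960, 1.12 and 0.385 elsewhere, where its sinoatrial levels were 0, 2.84 and 7.17. The type II rows thus overlapped between regions once all hearts were taken, while COL9A2 was highest at the outflow tract in both hearts that held it. The 4 cartilage marker rows outside the matrix list (SOX9, acana and epyc) summed to 1.52, 4.69 and 0 in the outflow tract of the 3 hearts. Elsewhere they reached at most 0.112, 1.61 and 6.24 in hearts 1, 2 and 3. Their part in the result was not tested.

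Among glycoproteins and proteoglycans, 5 of the 9 tested had an unadjusted p under 0.05 for the outflow tract, against 8.16% of all genes. None passed adjustment, with 0.105% of all genes called. TNC (tenascin C, a glycoprotein of tissues under remodelling) had 1.22, 1.96 and 0 reads per 10000 in the outflow tract, against 0, 0.0797 and 0.316 elsewhere. It was at least 169-fold higher in heart 1, with 3 reads put for the 0, and 24.6-fold higher in heart 2. In heart 3 its 73 reads all lay in 1 section of the AV canal (relative log2 fold change 3.74, SE 1.63, adjusted p = 0.145). The large proteoglycan vcanb (versican) had 1.82, 0.128 and 0 in the outflow tract, against 0.0288, 0 and 0.0432 elsewhere. The elastic fibre protein fbln5 (fibulin 5) had 1.00, 0.149 and 0, against 0.0120, 0 and 0.411. DCN (decorin, a small proteoglycan that binds collagen fibrils) had 1.19, 2.75 and 0, against 0.108, 1.58 and 0. In heart 2, however, DCN reached 5.65 in the sinoatrial region, above its outflow level. LUM (lumican, of the same family) likewise had 0.646 in the outflow tract and 1.47 in the sinoatrial region of heart 2, and 0.516 and 0 in those of heart 1. TNC, vcanb and fbln5 were thus higher in the outflow tract than in the other regions of hearts 1 and 2. Between the outflow and ventricle windows of heart 2, however, they had 5.62, 0.174 and 0.238, above their outflow levels in that heart. The outflow library of heart 3 was too shallow to show a direction for any of these 3 genes.

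Both rows of COL12A1, a fibril-associated collagen, differed between hearts. Row ENSDARG00000019601 had 2.15 reads per 10000 at the outflow end of heart 1 and no read in its other windows, whereas in heart 2 it had 1.13 at the outflow end and 4.28 in the sinoatrial region. Row ENSDARG00000078322 had 3.08 at the outflow end of heart 1, and in heart 2 0.449 there and 3.63 in the sinoatrial region. In heart 3 both were highest in the sinoatrial region, at 3.15 and 1.22.

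**Figure D2:**
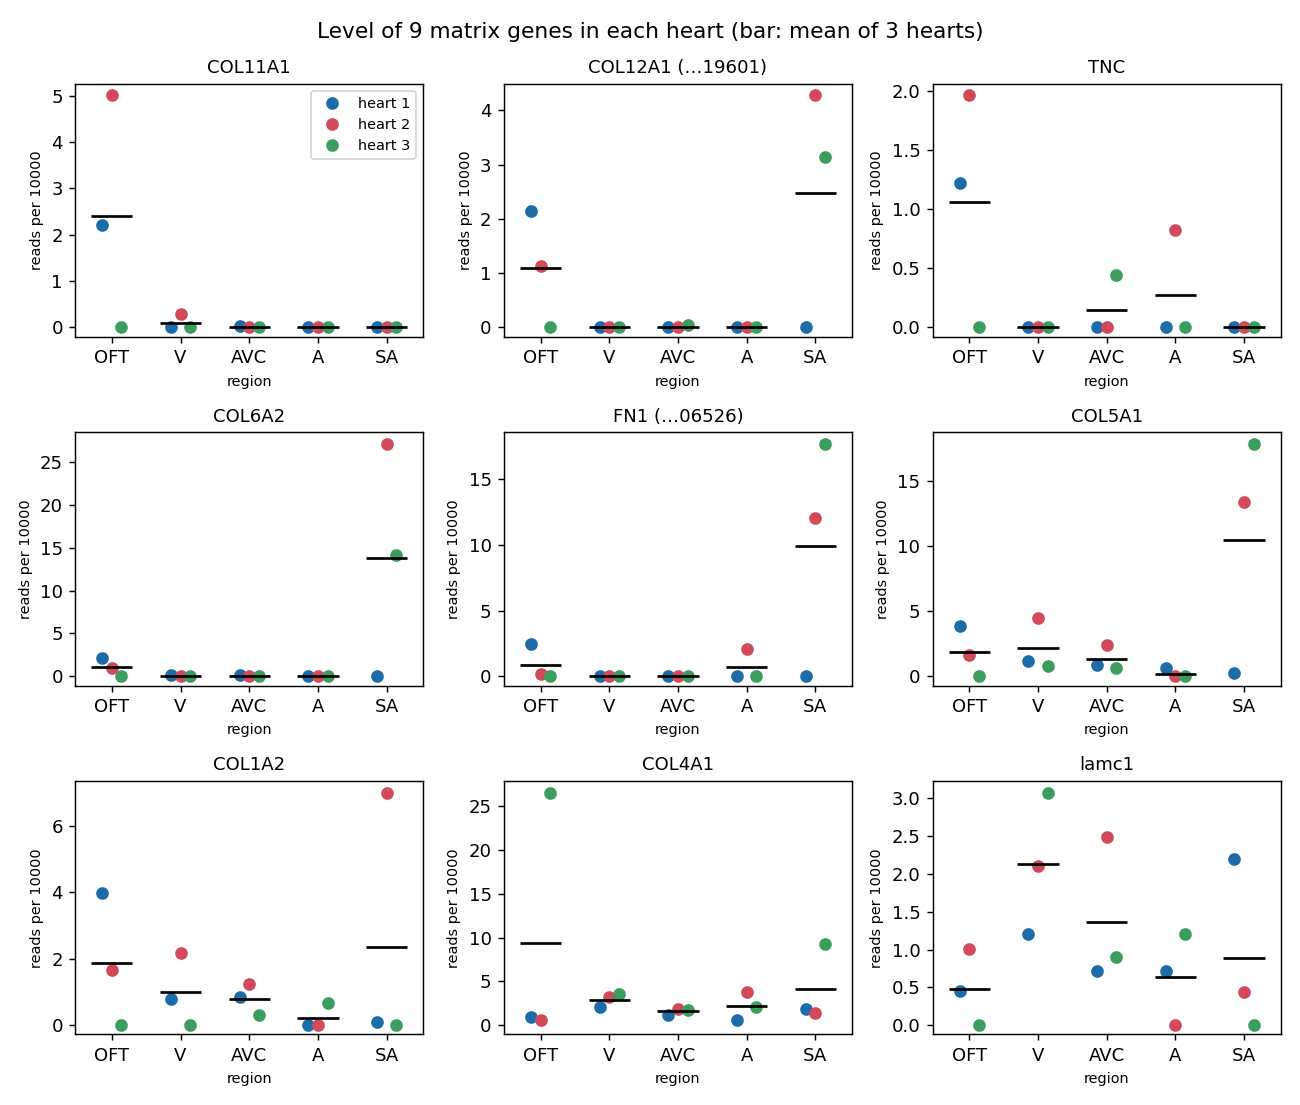
Reads per 10000 gene reads (vertical axes, each with its own range) of 9 matrix genes in the 5 regions (horizontal axes), with 1 point for each heart and a bar at the mean of the 3 hearts. COL11A1 is high at OFT in hearts 1 and 2 (2.22 and 5.01), COL6A2, COL5A1 and the FN1 row ENSDARG00000006526 are high at SA in hearts 2 and 3, and COL4A1 has reads in all 15 libraries.

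The outflow count depended on heart 3 and on the form of the test. With heart 3 left out 13 of 43 matrix genes passed, with 344 of all 10635 genes called. With heart 1 or heart 2 left out no gene was called. With the outflow library of heart 3 alone left out 4 of 45 passed, with 51 of all 11446 genes called. The 4 were COL11A1, TNC, COL12A1 ENSDARG00000019601 and COL2A1 ENSDARG00000069093. The fit without the heart as block called 11 of 45, with 413 of all 11453 genes. Pearson residuals called 17 of 45, with 922 of all 11453 genes, and a residual spread held at 1 or more called none. The call of COL11A1 was also lost when the same outflow window was set against all other tissue sections (relative log2 fold change 3.62, adjusted p = 1.00). It was lost as well with hearts placed by medians of raw reads (4.91, adjusted p = 0.362). Over all alternatives the adjusted p of COL11A1 ran between 2.51e-12 and 1.00.

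The next comparison set the sinoatrial region, which in the study holds the pacemaker cells, against the other regions. In hearts 2 and 3 its window was placed only by a line through the median sections of vmhc and myh6. No sinoatrial marker was checked there, so levels in this window were not tied to pacemaker tissue. Type VI collagen stood out in hearts 2 and 3: its 4 rows summed to 0, 49.2 and 33.7 reads per 10000 in the sinoatrial region of hearts 1, 2 and 3, against at most 0.267, 1.101 and 0.263 in the ventricle, AV canal or atrium. Their outflow sums were 4.51, 1.49 and 0, so that heart 1 was highest there. In the outflow comparison 3 of the 4 had an unadjusted p under 0.05, as higher, in the quasi-likelihood model, against 8.16% of all genes. None of the 4 passed adjustment there, with 0.105% of all genes called. Of the 45 matrix genes tested, 1 was higher and none lower, with 0.0175% of all genes called. An unadjusted p under 0.05 was reached by 8 of the 45 (17.8%), all higher, and by 3.62% of all genes. The median log2 fold change was -0.68 over all genes, and relative to it 0.51 over the matrix genes, of which 29 of 45 were above 0.

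The gene that rose was COL6A2 (ENSDARG00000061436), a type VI chain. It had no read among 381483 in the sinoatrial region of heart 1 (3 reads would be 0.0786 per 10000), 27.1 reads per 10000 (95% Wilson limits 25.3 to 29.1) in that of heart 2 and 14.2 (11.4 to 17.6) in that of heart 3. Elsewhere it had 0.728, 0.793 and 0, and heart 1 was highest in the outflow tract, at 2.10. It was 34.2-fold higher in heart 2 and at least 1072-fold higher in heart 3, with 3 reads put for the 0, and lower in heart 1. The sinoatrial level averaged 13.8 ± 13.6 (SD, n = 3). Its relative log2 fold change was 7.10 (SE 1.48), with an adjusted p of 0.0152 in the quasi-likelihood model. All 81 reads of heart 3 came from 1 of 5 sections, and those of heart 2 from 4 of 9.

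Depth differed within the sinoatrial window. In the window from position 37 on, a split made after the values were seen, heart 1 had 2713 gene reads, heart 2 had 233269 and heart 3 had 36421. Type VI collagen gave 0, 61.3 and 52.99 reads per 10000 in that stretch, and 3 reads in heart 1 would be 11.1. In the window up to position 36 it gave 0, 1.02 and 0, from 378770, 58902 and 20782 gene reads. The part of this difference in depth in the lack of type VI reads in heart 1 was not tested. Beyond the window heart 2 stayed high, at 61.7, and heart 3 had 1.68.

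The other type VI chains did not pass. The partner chain col6a1 had 0, 17.1 and 0 reads per 10000 in the sinoatrial region, against 0.505, 0.129 and 0 elsewhere. COL6A3 had 0, 2.94 and 0, and col6a4a had 0, 2.05 and 19.6, with all 112 reads of heart 3 in 1 section. Hearts 2 and 3 therefore shared high COL6A2 and col6a4a, and col6a1 and COL6A3 were high in heart 2 only. Along heart 2, col6a1 and COL6A2 had r = 0.844 and rho = 0.866 over 39 sections of 10000 or more gene reads. In heart 1 the values were r = 0.0293 and rho = 0.486 over 33 sections. These describe sections that share an animal and are not replicates.

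Several genes of other kinds were also high at the inflow end of hearts 2 and 3. The FN1 row ENSDARG00000006526, for fibronectin, which links cells to the matrix through integrins, had 0, 12.05 and 17.7 reads per 10000 in the sinoatrial region, against 0.771, 0.214 and 0 elsewhere (relative log2 fold change 5.82, SE 1.58, adjusted p = 0.444). COL5A1, a type V chain that takes part in starting type I fibrils, had 0.236, 13.4 and 17.8, against 1.84, 2.00 and 0.550. The type XI chain col11a1b had 0, 9.07 and 11.54, against 0.761, 0.394 and 0.136. All 3 were lower in the sinoatrial region than elsewhere in heart 1. That region of heart 1 had 378770 gene reads up to position 36 and only 2713 from position 37 on. SPARC, a collagen-binding glycoprotein, had 0.183, 4.21 and 12.6, against 1.21, 1.45 and 1.52, and its outflow levels were 2.98, 1.69 and 0. In heart 3 all sinoatrial reads of the FN1 row, col11a1b and SPARC (101, 66 and 72) lay in 1 section, at position 37. That section also held all sinoatrial type VI reads of heart 3. COL5A1 had 102 sinoatrial reads in that heart, from 2 sections.

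Markers of other tissues differed at the same places. In the sinoatrial region of the 3 hearts, 8 heart muscle rows summed to 106, 35.1 and 79.9 reads per 10000, 7 skin rows to 0, 0.445 and 21.2, 6 mesenchyme rows to 0, 4.997 and 0, and 4 smooth muscle rows to 14.3, 14.7 and 8.92. There, 4 leukocyte rows summed to 51.1, 0.171 and 0, 6 endocardial rows to 8.02, 1.47 and 2.27, and 5 proepicardial and epicardial rows to 0.236, 1.99 and 0. Blood rows and liver and yolk rows had no read there in any heart, and neuron rows at most 0.137. In the outflow tract, mesenchyme rows summed to 5.74, 3.90 and 0 and skin rows to 0.384, 47.2 and 0.680. Their part in the matrix levels was not tested.

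The call of COL6A2 was lost in limma on log2 CPM (adjusted p = 0.505), without heart 1 (0.174), without heart 2 (1.00) and with the borders of hearts 2 and 3 moved by 1 section toward the outflow end (0.234). It was also lost when the same sinoatrial window was set against all other tissue sections (relative log2 fold change 4.26, adjusted p = 0.812). Placement of hearts by medians of raw reads lost it too (3.05, adjusted p = 1.00). Over all alternatives its adjusted p ran between 3.65e-08 and 1.00. The fit without the block called 6 of 45 matrix genes, with 75 of all 11453 genes. Pearson residuals called 6 of 45, with 161 of all 11453 genes. The fit without heart 3 called 2 of 43, with 30 of all 10635 genes. A residual spread held at 1 or more called none.

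**Figure D3:**
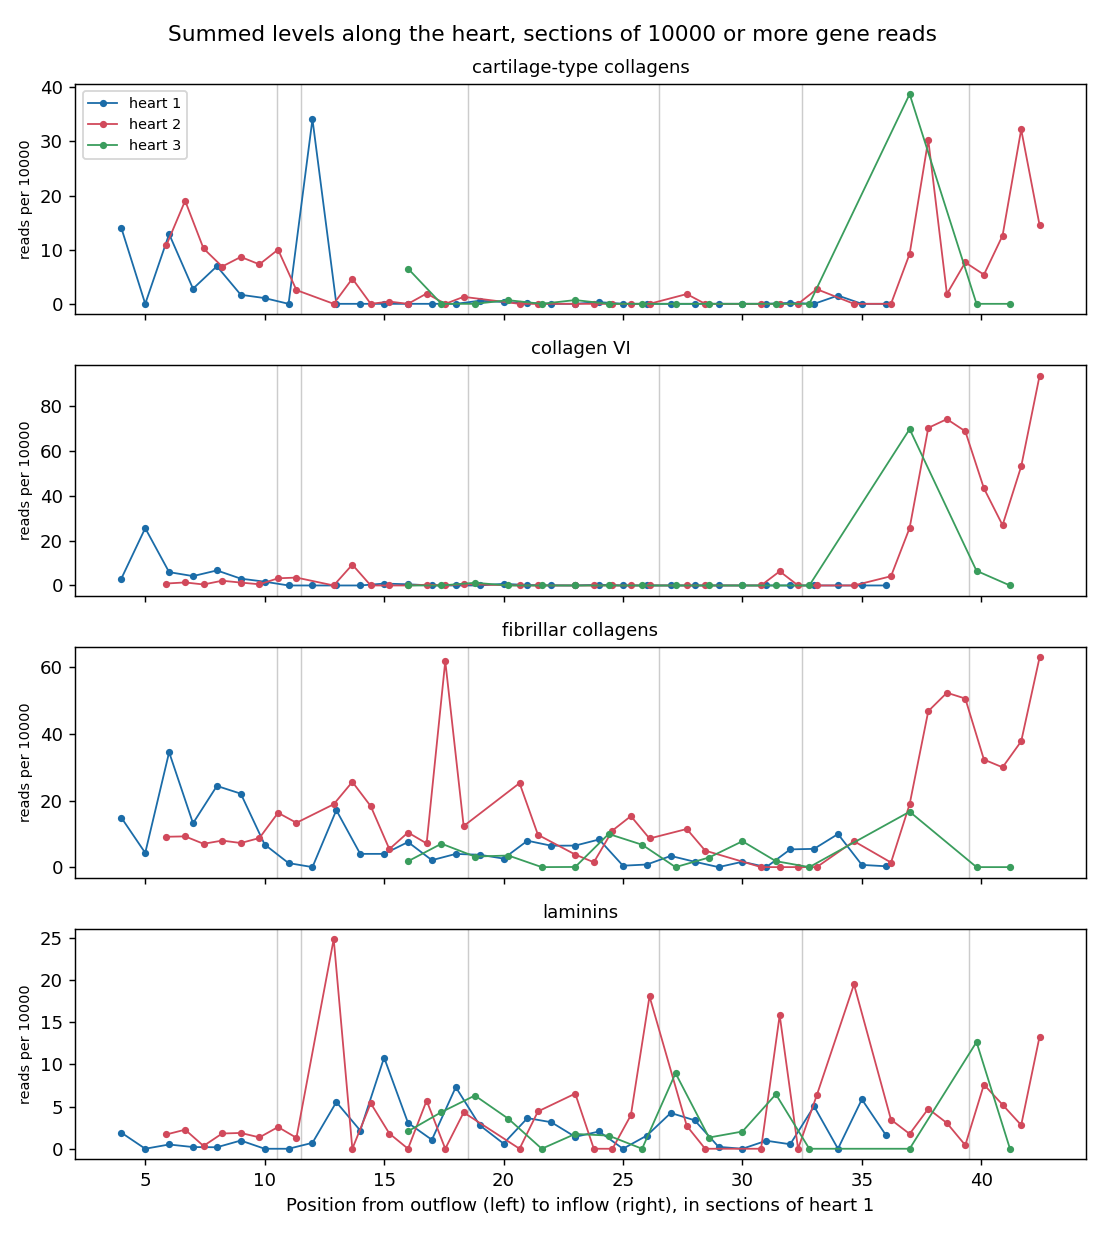
Summed reads per 10000 gene reads (vertical axes) of 4 groups of matrix genes along each heart, outflow to inflow in sections of heart 1 (horizontal axis), for sections of 10000 or more gene reads, with grey lines at region borders. Collagen VI is high in heart 2 from position 37 on and in heart 3 at position 37 alone, and heart 1 has no section of that depth there, and laminins are read along the whole axis.

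The type I chains, which form the main collagen of connective tissue, were read at both poles and in the chambers. COL1A1 levels in hearts 1, 2 and 3 were 5.78, 2.06 and 0 reads per 10000 in the outflow tract, 1.97, 1.54 and 0 in the ventricle, and 1.55, 6.33 and 0 in the sinoatrial region. COL1A2 had 3.96, 1.65 and 0 in the outflow tract, 0.773, 2.17 and 0 in the ventricle, and 0.105, 6.98 and 0 in the sinoatrial region. For col1a1a the outflow levels were 3.41, 2.39 and 0 and the sinoatrial levels 0.236, 6.78 and 0. All 3 were thus highest at the outflow tract in heart 1 and in the sinoatrial region in heart 2. In heart 3 all 110 reads of COL1A1 lay in the AV canal, and COL1A2 had 48 reads there and 27 in the atrium. The reads of col1a1a in heart 3 were 21, 26 and 27 in the ventricle, AV canal and atrium. COL5A2, the other type V chain, had 4.44, 0.304 and 0 in the outflow tract and 0.944, 1.57 and 0 in the sinoatrial region, so that it did not share the inflow levels of COL5A1. None of the 6 rows grouped as fibrillar (types I, V and XXIV) passed in any comparison, where at most 0.105% of all genes were called. Their median relative log2 fold change was 0.26 for the outflow tract and 0.53 for the sinoatrial region. Types II and XI, which also form fibrils, were grouped as cartilage-type and are not among these rows, so COL11A1 is not counted here.

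The basement membrane collagens had no common pattern. None of the 6 passed in any comparison, where at most 0.105% of all genes were called. COL4A1, a type IV chain of most basement membranes, had 2.07, 3.17 and 3.52 reads per 10000 in the ventricle of hearts 1, 2 and 3, 1.18, 1.80 and 1.69 in the AV canal and 0.641, 3.76 and 2.03 in the atrium. Its outflow level was 0.876 and 0.601 in hearts 1 and 2, below their other regions together, and 26.53 (95% Wilson limits 19.4 to 36.2) in heart 3, where all 39 reads came from 1 section. In the sinoatrial region it had 1.86, 1.40 and 9.27. In contrast, col15a1b, for collagen XV, had 0.132, 0.981 and 0 in the outflow tract. Among the other windows it was read only in the atrium of heart 1, at 0.389, and in the ventricle of heart 2, at 0.236. In heart 2 it also had 465 reads, or 4.25 per 10000, in the 2 sections between the outflow and ventricle windows, above its outflow level. The FN1 row ENSDARG00000019815, the most read of the 52 genes, had 3.87, 0.905 and 1.36 in the outflow tract, 0.347, 1.73 and 4.77 in the ventricle, 2.21, 3.504 and 0.998 in the AV canal, 1.90, 4.22 and 5.26 in the atrium and 6.40, 4.005 and 0 in the sinoatrial region. Beyond the sinoatrial window this row had 1220 reads in heart 3, or 46.6 per 10000, where row ENSDARG00000006526 had 9.09, so that the window leaves out most of its reads in that heart.

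No laminin passed in any comparison, where at most 0.105% of all genes were called, so this does not set laminins apart. For the outflow tract they had the lowest median of the 8 groups, a relative log2 fold change of -1.47, with 2 of 7 above 0. The gamma chain lamc1 had 0.450, 1.01 and 0 reads per 10000 in the outflow tract, against 1.02, 1.58 and 1.15 elsewhere. The alpha chain LAMA5 had 0.0180, 0.321 and 0, against 0.581, 0.354 and 1.06. The beta chain LAMB2 had 1.101, 2.12 and 5.42 in the sinoatrial region, against 0.396, 0.212 and 0.898 elsewhere. It was higher there in 3 of 3 hearts, by 2.78-fold, 10.0-fold and 6.03-fold (relative log2 fold change 2.57, SE 1.66, adjusted p = 1.00 in the quasi-likelihood model). In heart 3, however, all 31 of its sinoatrial reads lay in 1 of 5 sections, and that section held only 7477 gene reads.

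Ventricle and atrium were compared to ask whether the working chambers differ in matrix. None of the 45 matrix genes passed in the quasi-likelihood model, with 0.00873% of all genes called, and 2 had an unadjusted p under 0.05 (4.44%), against 3.11% of all genes. limma on log2 CPM also called none, with 2 at an unadjusted p under 0.05. The median log2 fold change was 0.06 over all genes and 0.46 relative to it over the matrix genes. The transmembrane collagen col23a1b had 0.318, 0.803 and 1.11 reads per 10000 in the ventricle and none in the atrium of any heart. With 3 reads put for the 0, it was at least 4.63-fold, 2.92-fold and 14.8-fold higher in the ventricle (relative log2 fold change 4.57, SE 2.69, adjusted p = 1.00). The ventricular reads of COL2A1 ENSDARG00000011407, the other gene, all came from heart 2.

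The AV canal, where the endocardial cushions form, was set against the mean of ventricle and atrium. None of the 45 matrix genes passed in the quasi-likelihood model, with 0.00873% of all genes called, and 3 had an unadjusted p under 0.05 (6.67%), against 5.47% of all genes. limma also called none, with 1 at an unadjusted p under 0.05. The median log2 fold change was 0.50 over all genes and -0.20 relative to it over the matrix genes, with 18 of 45 above 0. The fibril-associated chain COL14A1 had 0.0968, 0.328 and 0.667 reads per 10000 in the AV canal, against 0.0165, 0.132 and 0 in both chambers together (relative log2 fold change 2.66, SE 2.12, adjusted p = 0.866). It was higher in 3 of 3 hearts, but on few reads: 19, 10 and 109 in the AV canal of hearts 1, 2 and 3. All 10 of heart 2 lay in 1 of 10 sections, and 71.6% of those of heart 3 lay in 1 section. COL1A1 had 1.24, 1.83 and 0.674, against 1.58, 1.56 and 0, and was higher in hearts 2 and 3 only. The FN1 row ENSDARG00000006526 had no read in the AV canal of any heart, against 0.0329, 0.432 and 0 in the chambers.

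**Figure D4:**
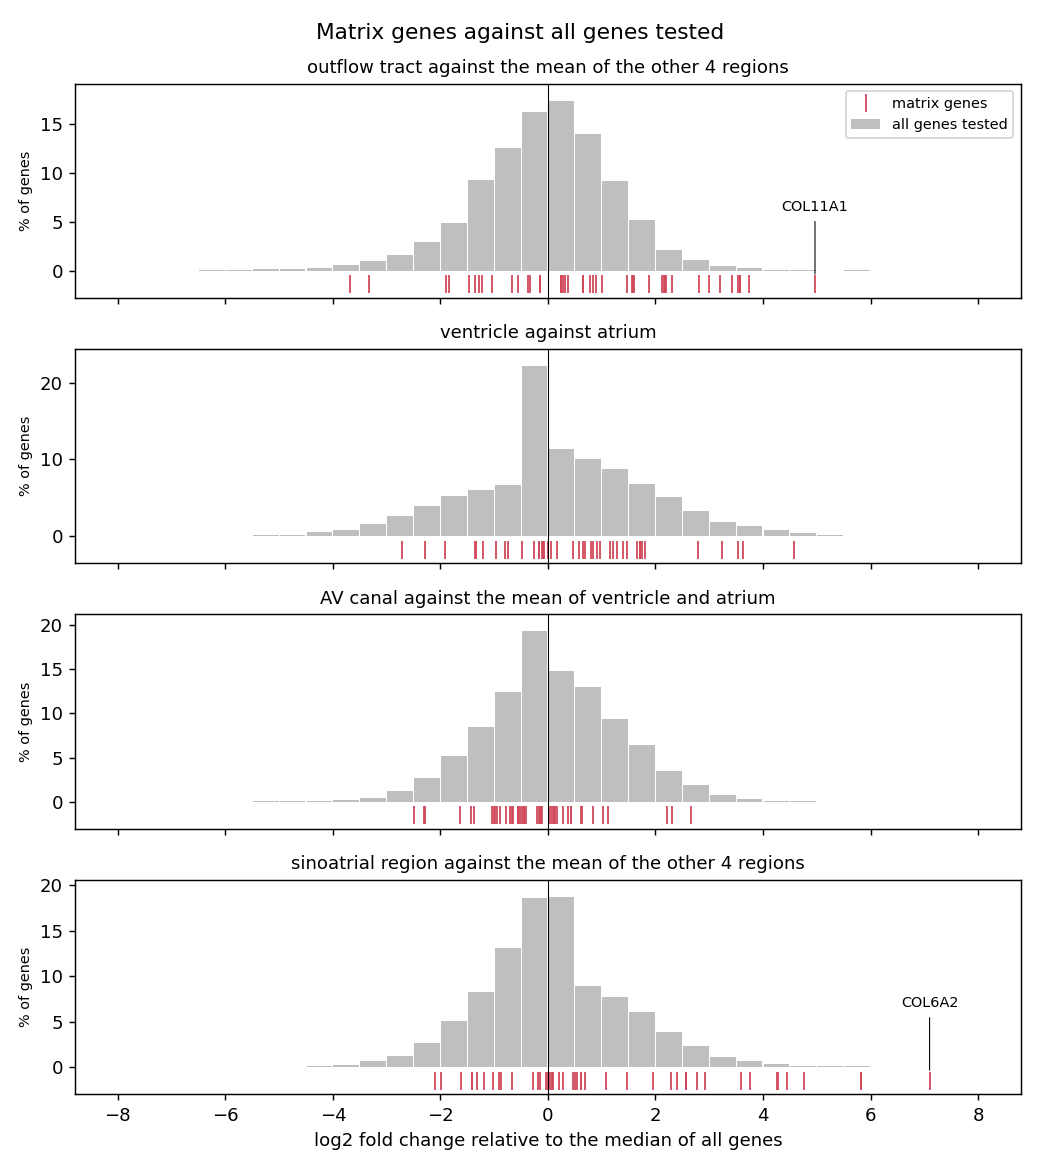
Log2 fold changes relative to the median of all genes (horizontal axis) in the 4 comparisons, as the percentage of all genes tested in each bin (grey bars) and as 1 tick for each of 45 matrix genes (red). The named ticks are the genes that passed an adjusted p of 0.05, COL11A1 at 4.97 and COL6A2 at 7.10.

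Genes that fold, crosslink, bind or break down matrix were read beside them. Of 55 rows matched from a list of such partners, 48 were tested and none passed in any of the 4 comparisons of the quasi-likelihood model. At most 0.105% of all genes were called in any of these. An unadjusted p under 0.05 was reached by 9 of the 48 for the outflow tract (8 higher) and 4 for ventricle against atrium (2 higher). It was reached by 3 in the AV canal comparison and 3 in the sinoatrial comparison (all higher). Of all genes tested, 8.16%, 3.11%, 5.47% and 3.62% reached it in these 4 comparisons, in the same order. The elastic fibre list had the highest outflow median, a relative log2 fold change of 1.49 over 8 tested genes, and the hyaluronan list the lowest, -0.71 over 5. Chosen after their values were seen, mfap2, a protein of elastic microfibrils, had 3.64 (SE 1.48, adjusted p = 0.152) and MMP2, which cuts collagens, 3.80 (SE 1.66, adjusted p = 0.183) for the outflow tract. The gene with a lower value was a HAPLN1 row (ENSDARG00000068516), a link protein of hyaluronan, at -5.14 (SE 1.57, adjusted p = 0.463).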

How the data were processed

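Per the authors' methods, RNA of single sections was barcoded and amplified by CEL-seq and reads were mapped to Zv9, and the submitters' processing notes name BWA 0.6.2. The deposited tables hold whole-number read counts per gene and section, with no other normalization. The inverted sections of heart 1 were put back as its label asks. Another 171 columns outside the tissue, and the spike-ins, were not used.

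Hearts 2 and 3 were placed on the scale of heart 1 by a line through the median sections of vmhc and myh6. Counts of the 15 libraries were fitted with a negative binomial quasi-likelihood model written for this work, with TMM factors, the heart as block (all regions of a heart come from the same animal), variances squeezed by limma 3.58.1 in R 4.3.3, a prior count of 2 for fold changes, and Benjamini-Hochberg adjustment over genes with at least 10 reads and reads in at least 2 hearts. Deviations of libraries of the same heart had median correlations of 0.065, 0.028 and -0.004. edgeR and DESeq2 were planned and not run, because the automatic unit check could not read these tables as counts.

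The model was settled with results in view. On the real data 5 forms of the residual spread, 2 dispersions and 2 placements were tried, also on shuffled region labels, and the deviance form and the placement by section shares were kept after the calls on the matrix genes were known. The calls depend on these choices. On simulated counts the share of unchanged genes among those called was above the nominal rate, and those counts had a smaller dispersion than the 1.79 estimated here, so the error rate at the spread of these data was not measured. The members and lists were chosen with earlier results of these data known. Values are given in full for genes past the test and for the most read genes with 10 or more reads in every heart and their chain partners, and genes named for an unadjusted p or a pattern were chosen after their values were seen.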

Additional observations from a re-analysis of the deposited data

How the results depend on the processing

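Counts are given for the outflow tract, ventricle against atrium, the AV canal and the sinoatrial region, in this order. Matrix genes called were 1, 0, 0 and 1, and genes called were 12, 1, 1 and 2. Leaving out 1 heart at a time gave 0 to 13, 0 to 0, 0 to 0 and 0 to 2 matrix genes and 0 to 344, 0 to 11, 0 to 8 and 0 to 30 genes, with the highest counts without heart 3 and none without heart 1 or heart 2. With no replicate block, 11, 0, 0 and 6 matrix genes and 413, 0, 0 and 75 genes were called. RLE size factors gave 1, 0, 0 and 2 matrix genes and 23, 2, 1 and 10 genes. No TMM factor gave 39, 2, 1 and 4 genes. limma gave 1, 0, 0 and 0 matrix genes and 142, 2, 0 and 0 genes. In another setting the ventricle and atrium windows of the study, which overlap those of other regions, were compared. There the outflow tract, AV canal and sinoatrial region, in unchanged windows, were each set against all other tissue sections. This gave 0, 0, 4 and 0 matrix genes and 0, 44, 26 and 5 genes. The 4 were COL11A1, COL6A2, FN1 ENSDARG00000006526 and col6a1, in a comparison that includes both poles. Its median relative log2 fold change over the matrix genes was -1.41. Borders moved toward the outflow end gave 1, 0, 0 and 0 matrix genes and 10, 0, 1 and 0 genes, and toward the inflow end 26, 1, 1 and 1 genes. Without sections under 10000 reads, 4, 0, 0 and 1 matrix genes and 40, 3, 2 and 5 genes were called. Of the alternatives added after seeing the data, Pearson residuals gave 17, 0, 2 and 6 matrix genes and 922, 68, 422 and 161 genes, deviance residuals held at 1 or more gave 0 in each, placement by medians of raw reads gave 0 matrix genes in each and 3, 2, 1 and 0 genes, a minimum of 10 reads in 3 or more libraries gave 7, 1, 1 and 2 genes, and leaving out the outflow library of heart 3 gave 4, 0, 0 and 1 matrix genes and 51, 3, 2 and 4 genes. With no filter on low counts, and with sections 2 to 11 as outflow tract, counts stayed within 1.5 times. The causes were not tested, and no fold change of COL11A1 or COL6A2 changed sign. The DESeq2 test and edgeR's filter were not run. In the outflow library of heart 3, of 14700 reads, 3 reads would be 2.04 per 10000, so a lower level there rests on fewer than 3 reads. With the most abundant gene row left out of the denominator, outflow levels of COL11A1 were 3.12 and 6.46 in hearts 1 and 2, against 2.22 and 5.01. Sinoatrial levels of COL6A2 were then 37.2 and 18.9 in hearts 2 and 3, against 27.1 and 14.2.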
